A study of Mus musculus with 7 samples.

Results

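These results describe the genomic regions at which CTCF was bound in both mouse cell lines of the series while its paralogue CTCFL gave no peak in either. Peaks of the 4 deposited lists that overlapped by at least 1 bp were merged into 65700 regions, and 13987 of them, 21.3%, held a CTCF peak of 3T3 cells, a CTCF peak of P19 cells and no CTCFL peak. They are called CTCF-only common regions below. The members were chosen from the peak calls of the same libraries that are described here, so the presence of CTCF and the absence of CTCFL are the selection and not a result.

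Fibroblasts of the NIH3T3 line (called 3T3) were studied beside P19, an embryonal carcinoma line that comes from a mouse teratocarcinoma and can differentiate. Chromatin was immunoprecipitated with antibody N2.2 against CTCF or S6 against CTCFL and sequenced, with 1 library per line and antibody. By the labels, both lines as analysed here carried the stable integrates pBI-EGFP-FLAG-mCtcfl and pTA-N, an inducible tagged mouse Ctcfl by its name. Cells were grown with doxycycline at 2 µg/ml, and induction was 48 h of growth without it. The titles call the P19 cells controls, so whether CTCFL was induced in them is not settled by the labels. Of the 7 samples, the 3T3 libraries without the construct and the P19 input DNA were not analysed here, so the CTCFL lists were not set against cells that lack the construct. Positions are in the mouse build mm9. No genome or gene annotation of that build was used, so no region is assigned to a gene and no sequence is shown.

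CTCF is a zinc-finger protein found in nearly all cell types. It recognises a long motif, stops cohesin as it extrudes chromatin loops, and so marks the borders of loops and domains and insulates enhancers from promoters. Many of its sites are occupied in unrelated cell types, whereas others are bound in some lineages alone. CTCFL, also called BORIS, has a closely similar zinc-finger domain and different ends, and is normally made in male germ cells. A region with CTCF in both lines and no CTCFL is thus a place where the somatic protein was found in a fibroblast and in a carcinoma line, and where the germline paralogue was not called at all.

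The 4 lists held 45653 peaks for CTCF and 16764 for CTCFL in 3T3, and 32277 for CTCF and 5866 for CTCFL in P19. Each peak has the score of the authors' caller, taken to be −10 times the log10 of its p-value, and the lists start at a score of 50. Scores depend on depth and on the control library, both unknown here, so their sizes are used within a list and never compared between lists. With 1 library per group there is no replicate spread, no difference below could be tested across replicates, and the 95% intervals cover counting error only.

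On the full lists, CTCF-only common regions were 13987 of the 18411 regions with CTCF in both lines, or 76.0% (exact interval 75.3 to 76.6). With each list cut to its 5866 top peaks they were 907, and the share was 49.5% (47.1 to 51.8). The other 4424 carried CTCFL. Of these, 1716 had it in P19 alone, 1355 in 3T3 alone and 1353 in both lines. Seen from one line, the CTCF-only common regions were 31.3% (30.9 to 31.8) of the 44633 regions with 3T3 CTCF and 43.4% (42.9 to 44.0) of the 32204 regions with P19 CTCF. Among regions without CTCFL in any list, CTCF of the one line was accompanied by CTCF of the other in 41.9% of 3T3 regions (41.4 to 42.5) and 52.1% of P19 regions (51.5 to 52.7).

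The absence of CTCFL depends on where its lists end. Of the 4424 common regions with CTCFL, 2126 had no CTCFL peak scoring 100 or more, and 602 had none scoring 60 or more. Leaving out CTCFL peaks under 100 raised the share of common regions without CTCFL to 87.5%. Regions with 3T3 CTCFL left the class whatever P19 showed, and the P19 CTCFL list is the shorter. The class is therefore one of regions in which CTCFL was not called at the authors' threshold.

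The CTCF peaks at these regions stood above the middle of their lists. In 3T3 their median CTCF score was 149 (145 to 151), with quartiles of 87.1 and 286.5, where the whole 3T3 list had a median of 104. In P19 it was 140.5 (139 to 143), with quartiles of 91.8 and 215, where the whole P19 list had a median of 117. As a rank, the median region sat at percentile 63.9 of the 3T3 list and 59.95 of the P19 list, counting its highest scoring peak. A 3T3 score of at least 100 was found at 9523 CTCF-only common regions, 68.1% (67.3 to 68.9), against 52.9% of all 3T3 CTCF peaks. In P19 9886 regions reached that score, 70.7% (69.9 to 71.4), against 59.0% of all P19 CTCF peaks. The rule asks for a peak in both lists, so these shares describe the class and nothing is read from them.

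Regions with CTCF in one line alone had lower scores, and common regions with CTCFL had higher ones. CTCF in 3T3 alone (19370 regions) had a median score of 74.8 (74.5 to 75.5). CTCF in P19 alone (12880 regions) had a median of 85.8 (84.9 to 87.0). The common regions with CTCFL had a median of 633 (583 to 690) in the 3T3 list and 190.5 (184 to 196) in the P19 list. The classes come from the same peak calls as the scores, so this order describes them and nothing is read from it.

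The 3 kinds of common region with CTCFL differed in which list their high scores lay. With CTCFL in 3T3 alone the median 3T3 CTCF score was 1352 (1246 to 1463), while the P19 CTCF score, 140.5 (134 to 148), lay within the interval of the CTCF-only common regions. With CTCFL in P19 alone the medians were 196 (185 to 205) in the 3T3 list and 221 (213 to 230) in the P19 list. With CTCFL in both lines they were 1658 (1507 to 1754) and 210 (199.5 to 222). CTCF scores were thus above those of the CTCF-only common regions in the line in which CTCFL had been called, and with CTCFL in P19 alone they were above them in the 3T3 list as well. Whether both antibodies recovered one signal at such sites was not tested.

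**Figure D1:**
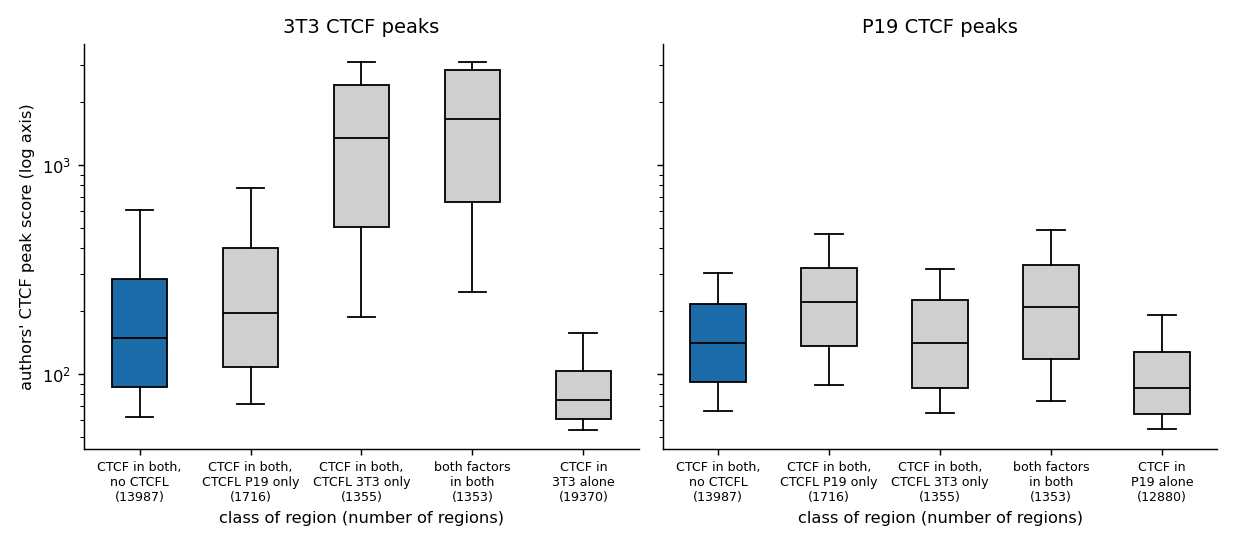
Authors' CTCF peak score (log axis) by class of region, in the 3T3 list (left) and the P19 list (right). Lines are medians, boxes the quartiles and whiskers the percentiles 10 and 90; numbers of regions are in brackets. The CTCF-only common regions (blue, medians 149 and 140.5) lie above CTCF in 1 line alone (74.8 and 85.8) in both lists, and below the regions with CTCFL in 3T3 (1352 and 1658) in the 3T3 list.

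Very high CTCF scores were rare in the class in 3T3. A 3T3 score of at least 1000 was found at 763 CTCF-only common regions, 5.46% (5.08 to 5.84), and at 1823 of the 4424 common regions with CTCFL, 41.2% (39.8 to 42.7). Scores of 3100 and above were reached by 35 CTCF-only common regions. The value 3100 itself repeats, at 505 peaks of the 3T3 list, and does not rank those. In the P19 list 1 CTCF-only common region and 9 of the common regions with CTCFL reached 1000. At the other end, 1090 of the CTCF-only common regions scored under 60 in 3T3 and 906 in P19, and 115, 0.822%, did so in both.

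The share of common regions without CTCFL fell as the CTCF score of 3T3 rose. Common regions were put in 10 equal groups of about 1841 by their 3T3 CTCF score. In group 1, with a median score of 57.4, 92.3% (91.0 to 93.5) lacked CTCFL. In group 5, with a median of 159.6, 85.0% (83.3 to 86.6) did. The share was 72.3% (70.2 to 74.3) in group 8, 56.2% (53.9 to 58.5) in group 9 and 21.5% (19.7 to 23.5) in group 10, with a median score of 2367. Most of the drop thus lay in the 3 highest groups. In group 10, 75.6% of regions had a 3T3 CTCFL peak and 43.1% a P19 CTCFL peak. Without the 3T3 CTCFL list the share in group 10 was 56.9%, and with CTCFL peaks of at least 100 alone it was 36.7%, against 93.1% and 98.4% in group 1 under the same settings.

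Ranked by the P19 CTCF score the fall was smaller and came later. The share without CTCFL was 82.2% (80.4 to 83.9) in the lowest of the 10 groups and stayed between 79.7% and 83.2% up to group 6. It was 65.6% (63.3 to 67.7) in group 9 and 54.8% (52.4 to 57.0) in group 10, which had a median score of 419. In that highest P19 group 24.0% of regions had a 3T3 CTCFL peak and 39.4% a P19 CTCFL peak. The 3T3 CTCFL share there was above the 14.3% of the lowest P19 group.

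**Figure D2:**
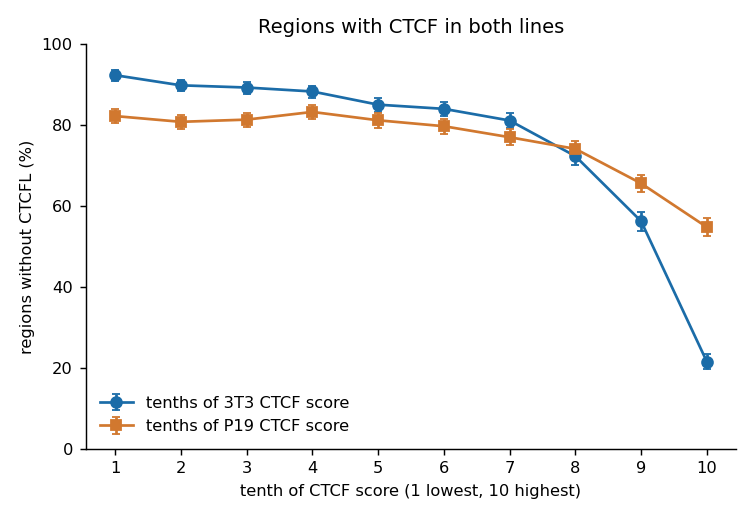
Share of regions with CTCF in both lines that have no CTCFL peak (%), over 10 equal groups of CTCF score in 3T3 (circles) and P19 (squares). Bars are exact 95% intervals for counting error. Along the 3T3 score the share runs between 92.3% in group 1 and 21.5% in group 10, and along the P19 score between 82.2% and 54.8% in the same groups.

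Some of the strongest 3T3 CTCF sites had no CTCFL call. The highest 3T3 score group held 396 CTCF-only common regions beside 1445 with CTCFL. Their median 3T3 scores were 1946 and 2545, so the groups were alike in rank only in part. Their P19 scores were close, with medians of 210 (199.7 to 229) without CTCFL and 209 (202 to 217) with it. The 3T3 peaks differed in width, with medians of 465 bp without CTCFL and 679 bp with it. Of the 396, 323 lay above the median of the P19 list, 81.6% (77.4 to 85.3). CTCFL was a median of 12.2 kb away from them (10.8 to 14.6), and 31 of the 396 had a CTCFL peak within 1 kb.

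The width of 3T3 CTCF peaks without CTCFL levelled off at high scores. Among the common regions it was 287 bp in the lowest 3T3 score group without CTCFL and 299.5 bp with it. It was 439 bp without CTCFL and 493.5 bp with it in group 7, and 460 bp without CTCFL and 544.5 bp with it in group 9. From group 7 to group 10 the CTCF-only common regions stayed between 439 and 465 bp, while those with CTCFL went on to 679 bp. A region that is wider can more easily touch a CTCFL peak, and the share of this in the difference was not tested.

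Compared at like P19 score, the 3T3 score separated the classes in each of the 10 groups. In the lowest P19 score group the median 3T3 score was 107 (101 to 113) without CTCFL and 475 (388 to 582) with it. In group 5 it was 145 (138 to 154) without CTCFL and 538 (421 to 749) with it, and in group 10 265 (248 to 295) and 909 (765 to 1088) in the same order. Compared at like 3T3 score, the P19 score separated the classes in some groups and not in all. In the lowest 3T3 group it was 111 (108 to 116) without CTCFL and 158 (134 to 177) with it, in group 7 166 (159 to 172) and 195 (179 to 224), and in group 9 184 (175 to 193) and 187 (174 to 202). The last pair of intervals overlapped.

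CTCF scores of the lines went together weakly across the class. Spearman's rho between the 3T3 and the P19 score was 0.26 over the 13987 regions (0.24 to 0.27), a description across sites that share 2 libraries. It was 0.31 over the 1716 common regions with CTCFL in P19 alone, 0.27 over the 1355 with CTCFL in 3T3 alone and 0.28 over the 1353 with CTCFL in both. Over all 4424 common regions with CTCFL together it was 0.13 (0.095 to 0.16). These values were set side by side without a test of their difference. When each list was cut to its 5866 top peaks, rho over the remaining 907 CTCF-only common regions was 0.046. In terms of levels, the 1399 members with the lowest 3T3 scores (median 56.2) had a median P19 score of 111 (107 to 115), and the 1399 with the highest (median 1067) had 193 (185 to 201). Ranked by P19 score, the lowest group (median 57.7) had a 3T3 median of 106 (100.4 to 112) and the highest (median 374) of 248 (236 to 263).

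By list medians, 6199 of the 13987 regions, 44.3% (43.5 to 45.1), lay above the median of both CTCF lists. The class stood above the middle of each list, at median percentiles 63.9 in 3T3 and 59.95 in P19. This share is therefore not read as agreement of the lines. The region was above the 3T3 median and not above the P19 median in 3035 cases, 21.7%, with the reverse in 2384 cases, 17.0%. It was at or below both medians in 2369, 16.9%. In the highest scoring 10% of both lists there were 337 of the regions, 2.41%. There were 29 regions in the highest 10% of the 3T3 list and the lowest 10% of the P19 list, and 42 the other way round. The class held more regions of the highest 10% (1372 in 3T3, 1646 in P19) than of the lowest 10% (791 and 793). These counts are therefore not read as agreement of the lines.

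**Figure D3:**
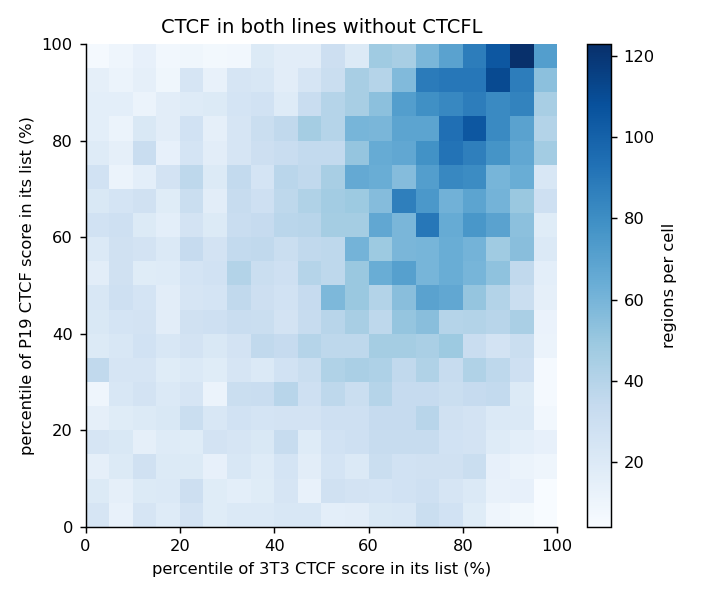
Percentile of the CTCF score within the 3T3 list (x axis) and the P19 list (y axis) for the 13987 CTCF-only common regions, as the number of regions per cell of 5 by 5 percentiles. Regions gather in the upper right, where 44.3% lie above both medians, and are spread over the rest of the plane, with a rho of 0.26. The class stands above the middle of each list, at median percentiles 63.9 in 3T3 and 59.95 in P19.

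The 6 regions named next were chosen by the highest mean percentile over both lists, so each is near the top of both by that choice. Chromosome X 92110789 to 92111525 scored 3137 in 3T3 and 648 in P19, with the nearest CTCFL peak 74338 bp away. Chromosome 17 46662468 to 46663196 scored 3108 in 3T3 and 602 in P19, and chromosome 17 83443078 to 83443686 scored 2864 in 3T3 and 658 in P19. Both lay over 10 kb from CTCFL, at 13905 and 31390 bp in that order. Chromosome 7 20375254 to 20376041 scored 2781 in 3T3 and 692 in P19 and was the nearest of the 6 to CTCFL, at 4815 bp. Chromosome 8 123352006 to 123352758 scored 3100 in 3T3 and 519.6 in P19, and chromosome 16 5306437 to 5307325 scored 2929.8 in 3T3 and 596 in P19. The 6 regions lay on 5 chromosomes, and their mean percentiles were between 99.0 and 99.7.

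The 3 highest 3T3 scores of the class did not all come with high P19 scores. Chromosome 7 25918024 to 25918645 had the highest 3T3 score of the class, 3226, and a P19 score of 146, at percentile 61.8 of its list. Its nearest CTCFL peak was 1259 bp away. Chromosome 15 78008659 to 78009430 scored 3178 in 3T3 and 286 in P19, and chromosome 12 88315281 to 88316195 scored 3177 in 3T3 and 303 in P19. These reached percentiles 89.7 and 91.3 of the P19 list.

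The highest P19 scores showed the same mixture. Chromosome 9 121923187 to 121923895 had the highest score of the P19 list, 1598, with 666 in 3T3, at percentile 90.6. Chromosome 11 60856919 to 60857847 scored 990.4 in P19 and 109 in 3T3, near the middle of the 3T3 list at percentile 51.7. Chromosome 17 29507948 to 29508770 scored 953 in P19 and 608 in 3T3.

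A few regions were near the top of one list and at the floor of the other. Chromosome 7 28120781 to 28121467 scored 1666 in 3T3 and 50.2 in P19, and had another CTCF-only common region 720 bp away. Chromosome 13 29049405 to 29050401 scored 2529 in 3T3 and 51.9 in P19, with a CTCFL peak 37 bp away. Chromosome 4 8954648 to 8955532 scored 1595 in 3T3 and 50.7 in P19. All 3 were high in 3T3 and at the P19 floor, so a slightly stricter P19 threshold would have placed them with CTCF in 3T3 alone. In the opposite direction, chromosome 17 47783405 to 47784028 scored 50.5 in 3T3 and 634 in P19, chromosome 6 113711475 to 113712276 scored 50.25 in 3T3 and 438 in P19, and chromosome 12 119003189 to 119003957 scored 51.9 in 3T3 and 495 in P19.

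The distance between the CTCF peaks of the lines within a region is bounded by the rule, since the 3T3 and P19 CTCF peaks of every member overlapped, and by their widths. The centres of the 3T3 and P19 peaks were a median of 59 bp apart (58 to 60.5), with quartiles of 28 and 103.5 bp. They were within 100 bp in 73.6% of the CTCF-only common regions (72.8 to 74.3) and in 57.2% of the common regions with CTCFL (55.7 to 58.7). Within 200 bp the shares were 95.7% (95.3 to 96.0) and 81.4% (80.3 to 82.6). Common regions with CTCFL can be joined through the CTCFL peak, without direct overlap of their CTCF peaks. They were also wider, with a median region width of 852 bp against 686 bp for the class. The part of both in these shares was not tested, so the shares are not read as a trait of the class. The lists give no summits, so the centre of a peak stands in for the site. The offset did not go with the score, with a rho of -0.0032 for 3T3 and -0.0081 for P19, and the median over 10 groups of 3T3 score stayed between 55 and 61.5 bp.

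Most CTCF-only common regions were simple, with 1 peak of each line. This held for 13653 of 13987, 97.6% (97.3 to 97.9), while 330 held several 3T3 peaks and 12 several P19 peaks. The 3T3 peak lay wholly inside the P19 peak in 9828 of the 13653, 72.0%, the P19 peak inside the 3T3 peak in 360, and the peaks overlapped in part in 3465. Median peak widths were 384 bp (382 to 386) in 3T3 and 664 bp (661 to 668) in P19, and the P19 peak was the wider in 92.6% of the 13653. The whole lists differ in the same direction, with medians of 342 bp for 3T3 CTCF and 636 bp for P19 CTCF. The CTCF peaks of the lines shared a median of 369 bp (367 to 371), and under 50 bp in 25 regions. Score and width went together with a rho of 0.43 in 3T3 and 0.21 in P19.

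At the edge of the rule stood regions whose CTCF peaks barely met or whose CTCFL peak barely missed. The CTCF peaks overlapped by 3 bp at chromosome 2 172995929 to 172997196 and at chromosome 11 63733771 to 63735739, the smallest overlaps of the class. A CTCFL peak lay 5 bp away at chromosome 7 107065042 to 107065873 and at chromosome 11 32061323 to 32061971, and 6 bp away at chromosome 14 26465638 to 26466208. Just outside, a CTCFL peak overlapped CTCF by 5 bp at chromosome 2 103688905 to 103689706, by 8 bp at chromosome 8 124070829 to 124071744 and by 10 bp at chromosome 10 75700025 to 75701214. The 3 were 3T3 CTCFL peaks, with CTCFL scores of 61.7, 115 and 102. Such borderline cases were few, with 55 CTCF-only common regions within 100 bp of a CTCFL peak and 14 common regions with CTCFL that overlapped by at most 50 bp.

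Distances to CTCFL start above 0 by the rule. The nearest CTCFL peak of either line was a median of 24.4 kb away (23.6 to 25.3), with quartiles of 7.92 and 69.8 kb. It was within 1 kb for 636 regions, 4.55% (4.21 to 4.91), and within 10 kb for 29.4% (28.6 to 30.1). The share within 10 kb was 12.8% without the 3T3 CTCFL list, 13.0% with CTCFL peaks of at least 100 alone and 14.6% with scores of at least 100 in every list. The nearest 3T3 CTCFL peak lay a median of 32.1 kb away and the nearest P19 CTCFL peak 84.3 kb away, and the 3T3 list holds more peaks. Of the 636 regions with CTCFL within 1 kb, 483 had a 3T3 and 232 a P19 CTCFL peak that near. In 425 of the 636, 66.8% (63.0 to 70.5), the neighbouring region with that CTCFL peak also held a CTCF peak of at least 1 line, and 182 of the neighbours were 3T3 CTCFL alone. Of all regions, 29.6% held CTCFL and 9.56% were 3T3 CTCFL alone, and most regions with CTCFL held CTCF as well. Neither count is therefore read as a trait of the neighbours of the class.

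Regions with CTCF in 1 line alone bracketed the class in their distance to CTCFL. A CTCFL peak within 10 kb was found for the 29.4% of CTCF-only common regions given above, for CTCF in 3T3 alone in 41.6% of cases (40.9 to 42.3) and for CTCF in P19 alone in 22.8% (22.1 to 23.5). Median gaps to CTCFL were 24.4 kb for the class, 14.7 kb for CTCF in 3T3 alone and 36.4 kb for CTCF in P19 alone. The CTCF-only common regions had another of their kind within 10 kb in 28.4% of cases (27.6 to 29.1), CTCF in 3T3 alone had one that near in 26.8% (26.2 to 27.4) and CTCF in P19 alone in 20.6% (19.9 to 21.3).

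**Figure D4:**
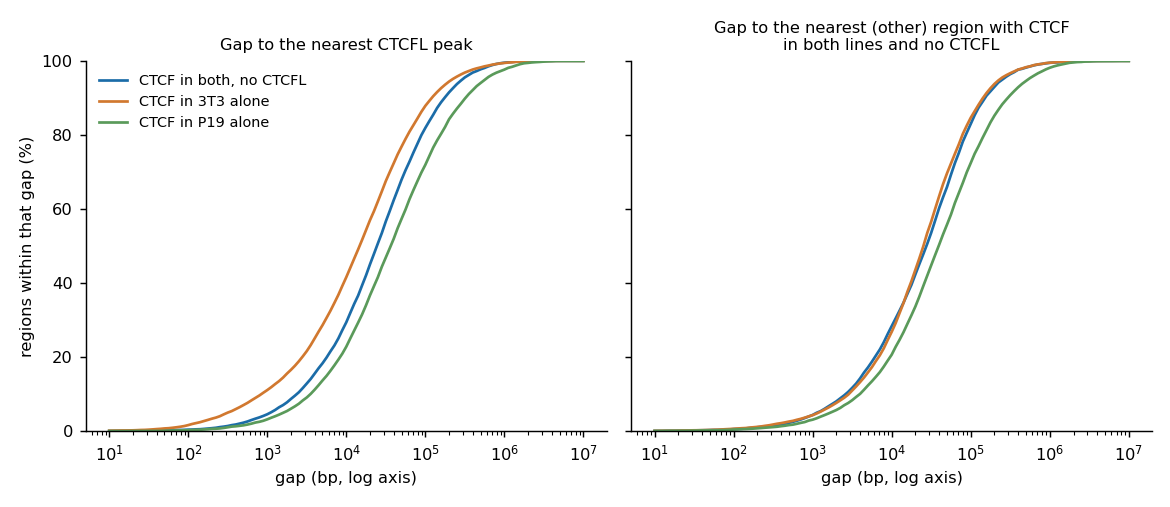
Cumulative share of regions (%) by gap (bp, log axis) to the nearest CTCFL peak of either line (left) and to the nearest, or nearest other, CTCF-only common region (right). CTCF-only common regions (blue) lie between CTCF in 3T3 alone (orange) and CTCF in P19 alone (green) on the left, with medians of 24.4, 14.7 and 36.4 kb in that order.

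Median 3T3 CTCF scores were higher where peaks of either kind, CTCFL or other CTCF-only common regions, were near. P19 medians were lowest where such peaks were over 100 kb away. Members with a CTCFL peak up to 1 kb away had a median 3T3 score of 200 (182 to 221), and those over 100 kb away one of 127 (122 to 132), with 168 and 146 in the distance classes between (over 1 to 10 kb and over 10 to 100 kb). In P19 the medians were 144 (134 to 157), 153 (148.5 to 157), 139.5 (137 to 142) and 128 (124 to 131) along the same 4 classes, nearest first. The P19 values of the nearest class and of the next had overlapping intervals. Distance to the nearest other member was split into the same classes. The 3T3 medians were then 169.6 (146.5 to 188), 161 (154 to 167), 150.2 (146 to 155) and 129 (124 to 134). The P19 medians were 147 (136 to 155), 143 (139 to 146), 142 (140 to 145) and 131 (128 to 136). In both lists the intervals of the classes up to 100 kb overlapped. The distance to CTCFL and the distance to another member were not separated from each other here. Density of peaks, which differs along the genome, goes with these distances, and its part was not tested.

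Within the class, neighbours lay a median of 27.6 kb apart (26.7 to 28.5), with quartiles of 8.39 and 70.3 kb, and the most isolated region had its nearest fellow 6.47 Mb away. Along the chromosome, 24.4% (23.9 to 24.9) of the adjacent regions of a member were members too, where members are 21.3% of all regions. CTCF in 3T3 alone made up 27.3% of adjacent regions and 29.5% of all, and CTCF in P19 alone 21.6% and 19.6%. Regions with any CTCFL made up 26.7% (26.2 to 27.2) of adjacent regions and 29.6% of all. In this sense 8013 members, 57.3%, stood singly, with no member on either side. Members are 21.3% of all regions, so this majority is not read as a trait of the class. The longest unbroken runs held 7 members, and of the 3 such runs the first along the genome were chromosome 2 105028144 to 105175042, over 147 kb, and chromosome 13 53783630 to 54131547, over 348 kb. Their median 3T3 scores were 147 and 93.9, and their median P19 scores 111 and 137.

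By chromosome, the regions were densest on 11, at 8.59 per Mb between the first and last region of the chromosome, and 19, at 7.80 per Mb. They were sparsest on X, at 1.68 per Mb, and next on 14, at 3.66 per Mb, with a mean of 5.53 ± 1.58 per Mb (SD over 20 chromosomes). The share of common CTCF regions without CTCFL went the other way. It was lowest on 11, at 68.0% (65.6 to 70.4), and 19, at 68.9% (65.2 to 72.4), and highest on 14, at 82.5% (79.0 to 85.7), 13, at 82.4% (79.3 to 85.3), and X, at 82.4% (77.8 to 86.3). The mean over chromosomes was 76.6% ± 4.33 (SD). Across the 20 chromosomes the share had a rho of -0.88 with the number of common CTCF regions per Mb, a description of chromosomes that share the same libraries. Common CTCF regions are also the denominator of the share. Members per Mb had a rho of 0.96 with CTCFL regions per Mb. The part of the density of peaks in these values was not tested.

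**Figure D5:**
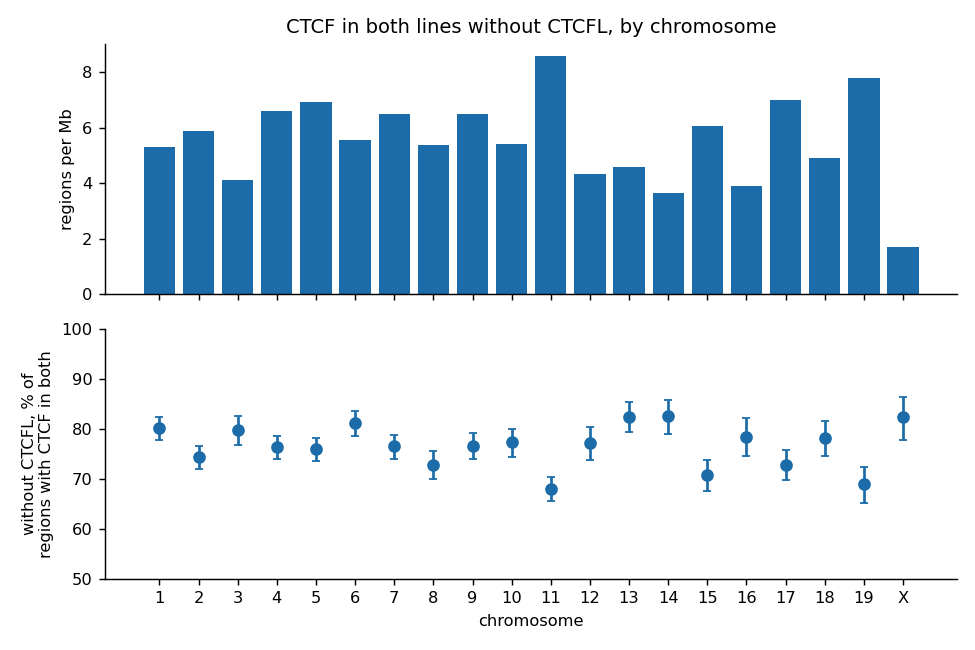
CTCF-only common regions per Mb of each chromosome (top, bars) and their share among regions with CTCF in both lines (bottom, %, points with exact 95% intervals, axis starting at 50). Chromosomes 11 and 19 have the most regions per Mb (8.59 and 7.80) and the lowest shares (68.0% and 68.9%), and X has the fewest per Mb (1.68).

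The 271 CTCF-only common regions on X had lower CTCF scores than the 13716 on autosomes in both lists. The 3T3 medians were 108 on X and 149.8 on autosomes, and the P19 medians 108 and 141. Their peaks were also narrower, with median widths of 325 and 385 bp in 3T3 and 525 and 667 bp in P19, X first. The number of X chromosomes per cell is not in the labels, so copy number and occupancy cannot be told apart here.

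In windows of 1 Mb the regions were unevenly spread. Of 2583 windows, 500 held none, the median window held 4 and the upper quartile was 8. The 202 windows with 15 or more held 27.1% of the class. They were picked by that count and their share of all regions was not compared, so this is not read as a trait of the class. Chromosome 10 80000001 to 81000000 held most, 39, beside 89 regions with CTCFL, and its neighbour 79000001 to 80000000 held 32 beside 85. These windows held 233 and 227 regions of any kind, in that order. Members were thus a smaller share of the regions there than the 21.3% over the whole set. Chromosome 7 25000001 to 26000000, which contains the region with the highest 3T3 score, held 29 beside 36. There members were a larger share than over the whole set. Windows rich in CTCF-only common regions were thus also rich in CTCFL, with a rho of 0.84 across the windows, which share libraries and differ in the density of peaks.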

How the data were processed

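The deposited peak lists of both factors were analysed, 1 per cell line and antibody. Per the submitters' processing notes, the tools were MACS 1.4, Bowtie, SAMtools and FastQC, and 2 builds are named, hg19 and mm9, without roles. For aligner settings, filters, pooling, control library and depth: not given in the sources used here. The deposited score of each peak was kept as it is. mm9 was taken from the notes and the organism, and on 10 chromosomes the last region lay beyond the last gene of GRCm38.p6, the only gene table at hand, so that table was not used.

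Starts were converted to positions counted from 1. Peaks overlapping by at least 1 bp were merged, and a region took score, width and centre from its highest scoring peak of a list. Gaps run between region ends. Shares have exact Clopper-Pearson and medians exact binomial order-statistic 95% intervals; rho intervals use Fisher's transformation. These treat regions as independent, which neighbours are not, so they are too narrow. No test was made. Named regions are those highest by mean percentile, by either score, by percentile difference and at the edges of the rule, plus the richest windows and longest runs. The members and lists were chosen with earlier results of these data known. Alternatives covered score limits, list lengths, peak size, centre distance, autosomes and the distance to CTCFL. Merging and gaps equalled those of bedtools 2.31.1 on the 4 lists (65700 regions, 13987 gaps), and 3000 of 3000 members planted in simulated lists were recovered. Software was SciPy 1.17.1, pandas 2.3.3, numpy 2.4.6 and matplotlib 3.10.9 under Python 3.11.15.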

Additional observations from a re-analysis of the deposited data

How the results depend on the processing

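No paired analysis was possible because there was 1 library a group, which leaves no pairs and no replicate to leave out. Alternatives were run for 14 values: the number and share of the class, its median scores, widths and offset, rho, the shares within 10 kb and the shares in the end score groups. The results by X, chromosome, window, run and distance class were not rerun. With lists of equal length the share was no longer a majority, and the interval of rho included 0 (-0.023 to 0.11). Of the values under alternatives listed at the start, 55 lay inside the reported interval (or within 1.5 times the count) and 41 moved. The alternatives chosen after seeing the data gave 8 inside and 34 that moved. Widths have no value once peaks are resized. Score limits, equal lengths and left-out lists remove peaks by construction; otherwise the cause was not tested. Below, the share is that of common regions without CTCFL, group 1 and group 10 are the lowest and highest of 10 score groups, and near CTCFL and near a member mean within 10 kb.

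With scores of at least 100 in every list there were 8706 CTCF-only common regions, a share of 84.1%, median scores of 249.5 in 3T3 and 194 in P19, widths of 433 and 704 bp, a rho of 0.19, 14.6% near CTCFL and 22.3% near a member. The share was 96.3% in 3T3 group 1, 28.2% in 3T3 group 10, 88.1% in P19 group 1 and 68.6% in P19 group 10. With lists of equal length there were 907 regions, a share of 49.5%, median scores of 943 and 314, widths of 489 and 734 bp, a rho of 0.046, 26.4% near CTCFL and 3.53% near a member. The share was 71.2% in 3T3 group 1, 15.8% in 3T3 group 10, 62.5% in P19 group 1 and 35.3% in P19 group 10.

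With no CTCFL within 1000 bp the share was 72.5%, with 26.0% near CTCFL, 27.2% near a member, 89.5% in 3T3 group 1, 77.9% in P19 group 1 and 51.2% in P19 group 10. Peaks resized to 400 bp gave a share of 76.6%. With CTCF peak centres within 200 bp the share was 78.8%, the offset 56 bp and 27.0% were near a member, with 28.0% in 3T3 group 10, 86.4% in P19 group 1 and 57.2% in P19 group 10. With 1 CTCF peak of each line the share was 77.1% and 27.5% were near a member. Autosomes alone gave no value outside the reported intervals.

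Among alternatives added later, CTCFL scores of at least 100 gave a share of 87.5%, median scores of 159.8 and 146, widths of 391 and 670.5 bp, a rho of 0.27, 13.0% near CTCFL and 32.5% near a member, with 98.4% and 36.7% in 3T3 groups 1 and 10 and 88.7% and 73.1% in P19 groups 1 and 10. Without the P19 CTCFL list these were 85.3%, 154 and 147, 388 and 671 bp, 0.27, 25.5% and 31.7%, with 98.7%, 24.4%, 85.8% and 76.0% in the same groups. Without the 3T3 CTCFL list the share was 83.3%, the 3T3 median score 163 and width 393 bp, the offset 61.5 bp, rho 0.24, with 12.8% near CTCFL and 30.7% near a member, and 56.9% in 3T3 group 10, 90.9% in P19 group 1 and 60.6% in P19 group 10.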

Other observations

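Away from CTCFL altogether, 197 windows of 1 Mb held CTCF-only common regions and no region with CTCFL of either line. They contained 367 of the 13987 regions, 2.62%. The share of all regions lying in these windows was not taken, so this value is not read as high or low. The 2 such windows with the most regions, chosen after their values were seen, were chromosome 2 135000001 to 136000000 and chromosome 6 129000001 to 130000000, with 7 regions each. The windows held 19 and 23 regions of any kind, in that order. Without CTCFL in a window, every region there with CTCF in both lines is a member by the rule. In the opposite direction, 153 windows held regions with CTCFL and no CTCF-only common region.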
